A study of Mus musculus with 2 samples.

Results

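The SREBP pathway genes examined here are 8 mouse genes of sterol and fatty acid synthesis: Insig1, Insig2, Srebf2, Hmgcs1, Msmo1, Fasn, Scd1 and Scd2. They were listed by name, chosen by the positions and folds of the peaks near them in this same list, and a KMT2D peak was assigned to a gene when its summit lay inside the gene or within 50 kb of it on mm10. This rule took 9 of the 3738 peaks in the deposited list and 5 of the 8 genes, among 21770 protein-coding genes placed on the same build. Every value below is therefore a description and none is a test.

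The peaks came from wild-type HT22 cells, an immortalised mouse hippocampal line, labelled as a wild-type clone and taken at 70% confluency without any treatment named in the labels. The KMT2D group was 1 library precipitated with the antibody Millipore ABE1867, and the control group was 1 library of input chromatin from the same genotype. Cells lacking the SET domain of KMT2D are part of the series' design and are not analysed here. No library had a replicate, and a peak list holds no expression level, so the hippocampal label was not checked against markers. Fold is the authors' value of ChIP over background at the summit, and its 95% interval is an exact Poisson interval of the ChIP fragments, which covers counting error only. The median peak of the whole list had a fold of 4.45 (interquartile range 3.50 to 5.75), and the median solved summit had 30 ChIP fragments over a background of 6.05.

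KMT2D is a methyltransferase of histone H3 lysine 4 that is known for its work at enhancers and promoters. SREBP transcription factors are made as membrane proteins of the endoplasmic reticulum. When sterols are scarce the escort protein SCAP carries them to the Golgi, where proteases release the active part, which enters the nucleus and switches on genes of sterol and fatty acid synthesis. When sterols are plentiful, INSIG proteins hold SCAP back. In neural cells, sterols are made locally in large part and go into membranes and myelin.

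Promoter windows, from 250 bases before to 50 bases after an annotated start, were found in RefSeq (GRCm38.p6) for 6 of the 8 genes. The windows of Fasn and Hmgcs1 are shown first because a KMT2D summit lay within 500 bp of these starts, and those of Insig1 and Srebf2 because these genes had no peak within 50 kb. Capitals mark, on either strand, the letters TCACNCCAC (a form of the sterol response element), CCAAT (the NF-Y box), GGGCGG (the GC box of Sp factors) and CACGTG (an E-box). Of these sets of letters, none overlapped another in these 4 windows, except that 2 CCAAT matches of Fasn on opposite strands share bases.
Fasn, chr11:120824498-120824797, minus strand: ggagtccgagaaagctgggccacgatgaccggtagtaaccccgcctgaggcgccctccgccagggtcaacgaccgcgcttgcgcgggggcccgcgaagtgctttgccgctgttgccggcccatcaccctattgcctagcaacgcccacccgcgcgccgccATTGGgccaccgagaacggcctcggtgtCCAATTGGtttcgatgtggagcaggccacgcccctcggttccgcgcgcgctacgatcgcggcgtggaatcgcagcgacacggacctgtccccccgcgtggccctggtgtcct
Hmgcs1, chr13:119690101-119690400, plus strand: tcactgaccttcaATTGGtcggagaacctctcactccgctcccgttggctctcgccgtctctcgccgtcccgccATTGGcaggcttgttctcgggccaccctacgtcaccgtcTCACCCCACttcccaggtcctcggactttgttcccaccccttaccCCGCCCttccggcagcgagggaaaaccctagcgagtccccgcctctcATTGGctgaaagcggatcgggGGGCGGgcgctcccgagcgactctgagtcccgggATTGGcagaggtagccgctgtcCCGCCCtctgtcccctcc
Insig1, chr5:28071162-28071461, plus strand: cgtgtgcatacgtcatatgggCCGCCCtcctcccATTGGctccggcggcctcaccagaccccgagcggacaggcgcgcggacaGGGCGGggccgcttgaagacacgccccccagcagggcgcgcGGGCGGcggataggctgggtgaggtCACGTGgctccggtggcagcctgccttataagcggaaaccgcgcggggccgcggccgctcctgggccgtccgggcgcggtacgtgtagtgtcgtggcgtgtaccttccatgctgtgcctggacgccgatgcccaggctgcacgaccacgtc
Srebf2, chr15:82147019-82147318, plus strand: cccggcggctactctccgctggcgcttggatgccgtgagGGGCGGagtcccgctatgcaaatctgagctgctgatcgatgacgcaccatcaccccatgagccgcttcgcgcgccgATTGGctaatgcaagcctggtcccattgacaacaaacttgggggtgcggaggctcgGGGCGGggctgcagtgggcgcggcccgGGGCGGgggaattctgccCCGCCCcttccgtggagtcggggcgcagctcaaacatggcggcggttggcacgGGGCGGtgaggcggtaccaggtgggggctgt

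The windows held different letters. The letters TCACNCCAC occurred once among the promoter windows of the 6 genes, as TCACCCCAC in Hmgcs1, whose first base lies at -137 from the start. Of 21262 promoter windows of protein-coding genes, 1.19% hold a match. Other forms of the sterol response element were not searched. CCAAT, found in 38.2% of all windows, matched 4 times in Hmgcs1, 3 times in Fasn and once each in Insig1 and Srebf2. Msmo1 also had 3 CCAAT matches, and 1 of the 3 windows of Insig2 had 3. GGGCGG, found in 46.2% of windows, matched 5 times in Srebf2, 3 times in Hmgcs1, 3 times in Insig1, 2 times in Msmo1 and not in Fasn. CACGTG, found in 7.84%, matched once, in Insig1, at -101. The AP-1 letters TGANTCA (6.99% of windows) matched once, in Msmo1, and TATAAA (12.6%) in none. A match describes the sequence and does not show that a factor was bound, and the whole peak sequences were not read here.

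All 6 genes had at least 1 window rich in G and C. The Fasn window had a GC content of 69.3% and an observed-to-expected CpG ratio of 1.09, higher than the ratio in 96.9% of windows. The ratio was 0.988 in Insig1, 0.935 in Msmo1, 0.864 in Srebf2 and 0.848 in Hmgcs1, against a median of 0.567 over all windows. Among these genes a CpG-rich start was present both where a summit lay close by, as at Fasn and Hmgcs1, and where none did, as at Insig1 and Srebf2. Over protein-coding genes at large, windows of genes with a summit within 1 kb of a start were richer in CpG. Their median ratio was 0.817 and their median GC content 64%, beside 0.567 and 56.3% over all windows. Insig2 had 3 annotated starts that differed: the outermost had a GC content of 46.0% and no CpG, and the other two had ratios of 0.698 and 0.81.

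Of the 8 genes, 5 had a summit inside or within 50 kb, where 24.9% of all protein-coding genes did. Since the peaks themselves led to the choice of genes, this share cannot be read as an excess. Insig2 and Scd2 had 2 summits each and Msmo1 had 3, while Hmgcs1 and Fasn had 1. Among all protein-coding genes, 15.7% (3420) had exactly 1 summit under this rule, 5.67% (1235) had exactly 2 and 2.11% (460) had exactly 3. At least 2 summits were found at 9.22% of genes and at least 3 at 3.55%. Insig1, Scd1 and Srebf2 had none.

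**Figure D1:**
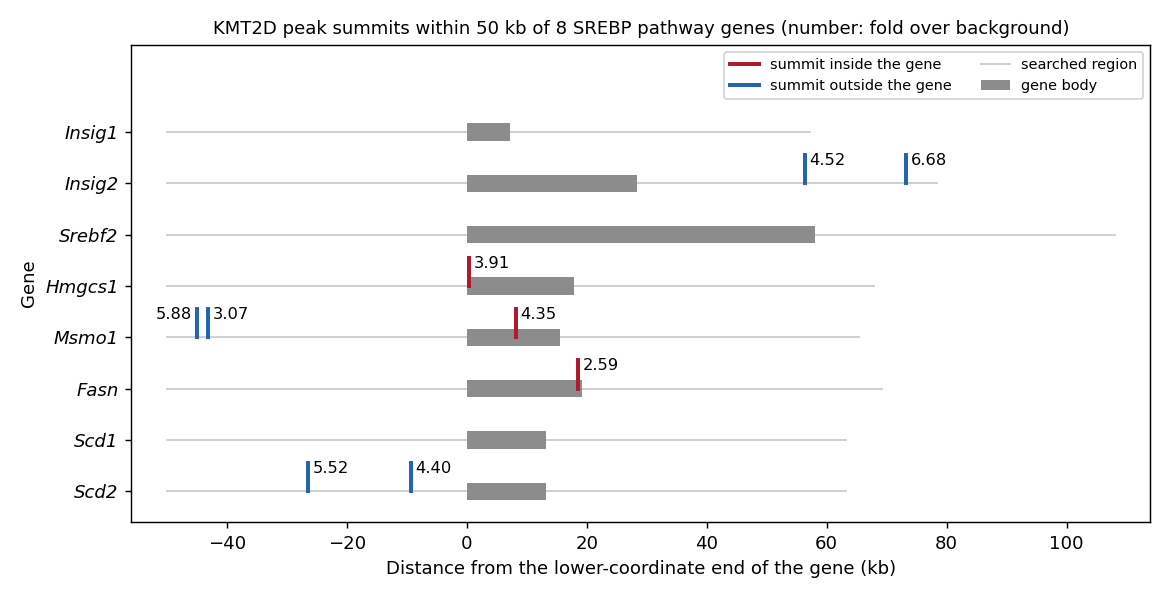
Position of each KMT2D summit near the 8 genes, in kb from the end of the gene with the lower coordinate; grey bars are gene bodies, thin lines the searched region of 50 kb on either side, and numbers the fold over background. Summits lie inside Hmgcs1, Msmo1 and Fasn, outside Insig2 and Scd2, on both kinds of place at Msmo1, and nowhere in the regions of Insig1, Srebf2 and Scd1.

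The regulators of SREBP came first by role. Insig2 encodes an endoplasmic reticulum protein that retains SCAP, and both of its peaks lay upstream of the gene, far from its 3 annotated starts. The nearer peak, chr1:121360600-121360875, had its summit 28054 bp from the gene, with 25 ChIP fragments over a background of 4.76 and a fold of 4.52 (2.98 to 6.59). The farther peak, chr1:121377435-121377701, lay 44934 bp from the gene, with 35 fragments over 4.39 and a fold of 6.68 (4.71 to 9.22). It had the highest fold of the 9 peaks, above 84.5% of the peaks on chromosomes 1 to 19, X and Y, and its interval lay above the list median.

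The summits of the Insig2 pair were 16880 bp apart, and Insig2 was the only protein-coding gene within 50 kb of either. The nearer summit lay 645 bp from 2210011K15Rik, a long non-coding RNA gene, and the farther lay 17525 bp from it. So the peaks can be assigned to Insig2 among protein-coding genes by distance alone, while the non-coding gene lay closer to both. Insig2 spans chr1:121304353-121332662, and no peak lay inside it or within 10 kb of it.

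Insig1, a paralogue of Insig2 and itself a known SREBP target, had no peak in the region searched. The closest summit to Insig1 (chr5:28071412-28078662) was 279870 bp away, inside Paxip1, with a fold of 2.88 (2.01 to 4.01). Srebf2 encodes SREBP2, the family member that chiefly drives sterol synthesis and uptake. The closest summit to Srebf2 (chr15:82147269-82205379) was 287192 bp away and 1751 bp from Tob2, with a fold of 6.49 (4.72 to 8.73). On the chromosomes of Insig1 and Srebf2, 26.7% and 35.8% of protein-coding genes had a summit inside or within 50 kb. A gene without a peak is one where none was called at this depth, and the background at these genes is not in the list. Among called peaks, the lowest pileup was 10 ChIP fragments at backgrounds under 3 and 17 at backgrounds of 5 to 8.

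Hmgcs1 and Msmo1, the sterol synthesis enzymes among the genes chosen with these peaks in view, each had a peak inside the gene. Of 20 further enzymes of sterol synthesis, taken up below, none had one inside, where 6.72% of all protein-coding genes did. Hmgcs1 encodes the cytosolic enzyme that makes HMG-CoA, an early step of sterol synthesis. Its peak, chr13:119690579-119690840, had its summit 416 bp downstream of the annotated start, with 18 ChIP fragments over a background of 3.86 and a fold of 3.91 (2.40 to 6.06). The peak began 178 bases beyond the promoter window printed above, so it did not cover the sterol response element letters. Its −log10 q of 3.93 was higher than that of 17.6% of peaks, which places it among the weaker calls of the list. Nim1k and Ccl28 also lay within 50 kb of this summit, at 19327 and 36408 bp.

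Msmo1 encodes a sterol methyl oxidase that removes methyl groups on the way from lanosterol to cholesterol. The peak inside Msmo1, chr8:64726155-64726574, lay 7322 bp downstream of the annotated start, with 19 fragments over a background of 3.60 and a fold of 4.35 (2.70 to 6.67). Whether this summit is in an exon or an intron is not given by the gene table used here. Msmo1 spans chr8:64718123-64733578, so the summit sat near the middle of the gene, 8133 bp from its other end.

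The other 2 peaks counted for Msmo1 lay inside its neighbour Cpe, which encodes carboxypeptidase E, a processing enzyme of neuropeptides and hormones. The first, chr8:64672978-64673195, was 45043 bp from Msmo1 and had 18 fragments over the lowest background of the 9 peaks, 2.23, with a fold of 5.88 (3.61 to 9.12). The second, chr8:64674887-64675130, was 43107 bp from Msmo1 and had 14 fragments over 3.89, with a fold of 3.07 (1.77 to 5.01). Its −log10 q of 1.57 was close to the lowest of the list, 1.32, and 1.27% of peaks had a lower one. These summits were 1936 bp apart, and by distance to a protein-coding gene they belong to Cpe. The intervals of the pair overlapped.

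The fatty acid synthesis genes differed in the place of their peaks. Fasn encodes fatty acid synthase, which builds palmitate from acetyl and malonyl units. Its peak, chr11:120824354-120824828, covered all 300 bases of the promoter window printed above, and its summit lay 58 bp downstream of that start. It was the only peak to overlap a promoter window of the 6 genes that had one. Among the 17491 protein-coding genes with an annotated start, 2.89% had an overlapping peak. The Fasn summit held 34 ChIP fragments over a background of 12.5, and its fold of 2.59 (1.81 to 3.58) was the lowest of the 9. Its interval lay below the list median, and 4.53% of peaks had a lower fold. The pileup was above the list median of 30 and the background above the list median of 6.05, so the low fold stood beside a high background and not a low pileup.

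Fasn also had the most crowded surroundings. Within 50 kb of its summit lay 5 protein-coding genes, the next nearest being Ccdc57 at 2040 bp. The RefSeq gene, chr11:120805958-120825166, reaches 677 bp beyond the summit on the side of the start. On this chromosome 38.5% of protein-coding genes had a summit inside or within 50 kb.

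Scd1 and Scd2 encode stearoyl-CoA desaturases, which put the double bond into saturated fatty acids, and Scd2 is the form known for its expression in brain. Scd2 (chr19:44293676-44306864) had 2 peaks on its lower-coordinate side and Scd1 (chr19:44394450-44407709) had none within 50 kb. The nearer Scd2 peak, chr19:44284170-44284639, lay 9347 bp from the gene with 51 fragments over a background of 10.8 and a fold of 4.40 (3.30 to 5.76). It had the highest pileup of the 9 and sat at 632 bp from Gm41853, which is annotated as a long non-coding RNA gene. The farther peak, chr19:44266921-44267295, lay 26521 bp away with 26 fragments over 3.89 and a fold of 5.52 (3.68 to 7.99).

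The pair of Scd2 peaks lay 17174 bp apart in the cluster of desaturase genes, and other genes could claim them. The farther summit was nearer to Pkd2l1 (18827 bp) and to Scd3 (23139 bp) than to Scd2. The nearer summit had Scd2 as its nearest protein-coding gene, with Pkd2l1 at 36001 bp, Scd3 at 40313 bp and Scd4 at 48997 bp. The same summit was also the nearest peak to Scd1, 110121 bp away. Both peaks thus lay outside the region searched around Scd1.

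**Figure D2:**
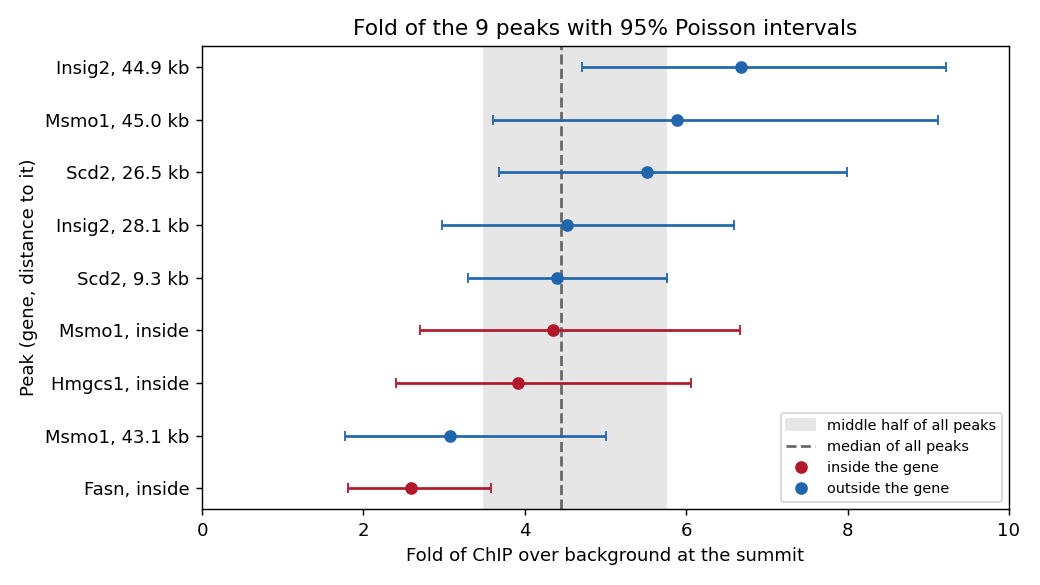
Fold of ChIP over background at the summit of each of the 9 peaks, with exact 95% Poisson intervals; red points lie inside the gene and blue points outside it, the dashed line is the median of all peaks (4.45) and the band runs from 3.50 to 5.75. The farther Insig2 peak (6.68) is the highest and the Fasn peak (2.59) the lowest, and these are the peaks whose intervals miss the median.

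Peaks inside the genes and peaks outside them spanned overlapping ranges. The 3 summits inside Hmgcs1, Msmo1 and Fasn had folds from 2.59 to 4.35 with a median of 3.91. The 6 summits outside had folds from 3.07 to 6.68 with a median of 5.02. In the whole list, summits inside any protein-coding gene had a median fold of 4.24 and those outside every such gene 4.68. Over all 9 peaks the median was 4.40, next to 4.45 for the list. Of the 9, 4 were at or above the list median of fold, 2 were at or above its 75th percentile and 3 had a −log10 q no lower than the list median of 8.26.

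The fragments behind the peaks split them another way. The Fasn peak and the nearer Scd2 peak had backgrounds of 12.5 and 10.8 fragments, and the other 7 had backgrounds from 2.23 to 4.76, below the list median of 6.05. Pileups ran from 14 to 51 with a median of 25, against 30 in the list. The widths ran from 218 to 475 bp with a median of 276, against 296. These peaks were thus close to the list in fold and width, and most of them had a background below the list median. This background was solved from the authors' fold and p-value and is not a count of input fragments. Its lowest value in the list was 2.19, close to the 2.23 above. None of the 9 summits lay within 500 bp of a tRNA or other small RNA gene, and the closest such gene to any was Mir5114, 18842 bp from the nearer Scd2 summit.

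**Figure D3:**
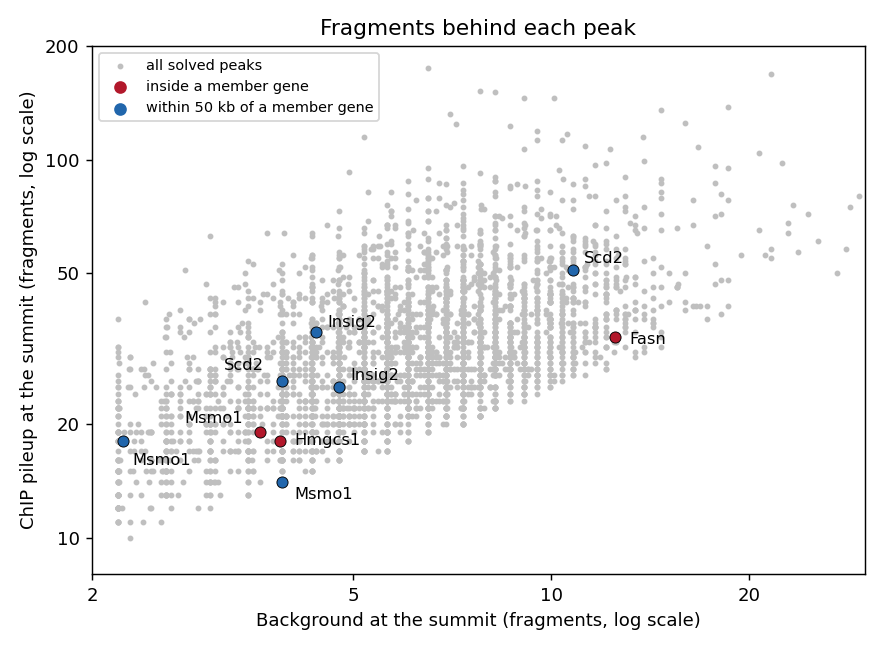
ChIP pileup against background at the summit, in fragments, on log axes; grey points are the solved peaks of the list, of which 66 lie beyond the axes, red points lie inside a named gene and blue points within 50 kb of it. Scd2 (51 fragments over 10.8) and Fasn (34 over 12.5) sit to the right of the other 7 peaks.

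The limit of 50 kb fell in a gap. The outermost summits inside it were 45043 bp from Msmo1 (fold 5.88) and 44934 bp from Insig2 (6.68). The first summits outside it were 5 peaks at 88.2 to 93.4 kb from Hmgcs1, inside Tmem267, with folds from 1.34 to 2.46 over backgrounds from 47.0 to 268 fragments. The next beyond were 107967 bp from Fasn (3.43) and 110121 bp from Scd1 (4.40). A limit of 100 kb thus added these 5 peaks of very high background and no further gene.

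Closer limits lost Insig2 first and Scd2 next. Within 10 kb, 4 of the 8 genes had a summit (Hmgcs1, Msmo1, Fasn and Scd2), where 12.1% of all protein-coding genes did. Within 2 kb, 3 did (Hmgcs1, Msmo1 and Fasn), beside 8.82%, and the same 3 had the summit inside the gene, beside 6.72%. Of the 6 genes with an annotated start, Fasn and Hmgcs1 had a summit within 500 bp of it, beside 3.65% of 17491 genes, and within 1 kb the same 2 did, beside 4.11%. At 100 kb, 5 of 8 genes had a summit, beside 35.8%.

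The other genes of the pathway were 72 in 6 roles, also listed with earlier results known. Of them 18 (25%) had a summit inside or within 50 kb, beside 24.9% of all protein-coding genes, and 6 (8.33%) had one inside the gene, beside 6.72%. The same 6 were those with a summit within 2 kb, beside 8.82%, and within 10 kb, beside 12.1%, and 26 (36.1%) had one within 100 kb, beside 35.8%. Among peaks from the 75th percentile of fold upward, 2 of the 72 had one within 50 kb, beside 7.48%. The counts include both Scd2 peaks, in the window of Scd3, and the nearer of them, in that of Scd4. The median fold of the 24 distinct peaks near these genes was 3.94.

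Of 20 further enzymes of sterol synthesis, none had a summit inside the gene or within 10 kb, beside 6.72% and 12.1% of all protein-coding genes, and 3 (15%) had one within 50 kb, beside 24.9%. These were near Dhcr7, the last reductase of the pathway (4.22, at 21682 bp), Mvk, mevalonate kinase (4.07, at 36315 bp), and Acat2, which joins acetyl units (2.15, at 31880 bp). Each of these summits was nearer to another protein-coding gene: Nadsyn1, Ube3b and Wtap. Sqle, which encodes squalene epoxidase, had none within 50 kb.

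Among the genes of SREBP processing, 1 of 7 (14.3%) had a peak within 50 kb, beside 24.9% of all protein-coding genes. Mbtps1, which encodes the protease that makes the first cut in SREBP, had a summit 133 bp downstream of its start with a fold of 3.50 (2.29 to 5.14). Srebf1, the SREBP gene most tied to fatty acid synthesis, and Scap had none within 50 kb.

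Of 7 genes of sterol uptake and transport, 3 (42.9%, beside 24.9%) had a summit within 50 kb and 2 (28.6%, beside 6.72%) had it inside. Mylip, which encodes a ubiquitin ligase induced by oxysterols, had a summit 8401 bp downstream of its start with a fold of 3.48 (2.07 to 5.52). The Npc1l1 peak (3.32, at 10711 bp) lay inside Nudcd3.

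In fatty acid synthesis, elongation and desaturation 7 of 25 genes (28%, beside 24.9%) had a summit within 50 kb. Fads3, a gene of the fatty acid desaturase cluster, held 2, with folds of 4.44 (3.13 to 6.13) and 5.73 (4.22 to 7.63), at 987 and 2290 bp downstream of a start. Me1, the malic enzyme that supplies NADPH, had one 196 bp downstream of its start with a fold of 3.23 (2.01 to 4.96). The Me1 summit also lay inside A330041J22Rik, a long non-coding RNA gene. Fads2 counted the Fads3 summits, Scd3 counted both of Scd2 and Scd4 the nearer of them, and Hsd17b12 (4.19) and Acly (2.80) had summits nearer to Alkbh3 and Ttc25.

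Glycerolipid synthesis had 3 of 6 genes (50%, beside 24.9%) with a summit within 50 kb. Lpin1, a phosphatidate phosphatase, had one deep inside the gene, 19419 bp downstream of a start, with a fold of 5.07 (3.38 to 7.34). The summits near Dgat1 (up to 6.15) lay inside Bop1, and the Agpat1 one (3.62) lay 645 bp from Atf6b. Of 7 genes of sterol efflux, storage and oxysterol response, Mlxipl alone (14.3%, beside 24.9%) had summits within 50 kb, with folds of 3.14 and 2.62, and these lay at Baz1b. Summits within 500 bp of a start thus had folds of 2.59 at Fasn, 3.23 at Me1, 3.50 at Mbtps1 and 3.91 at Hmgcs1, and those deeper inside had folds of 3.48 at Mylip, 4.35 at Msmo1, 4.44 and 5.73 at Fads3 and 5.07 at Lpin1.

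**Figure D4:**
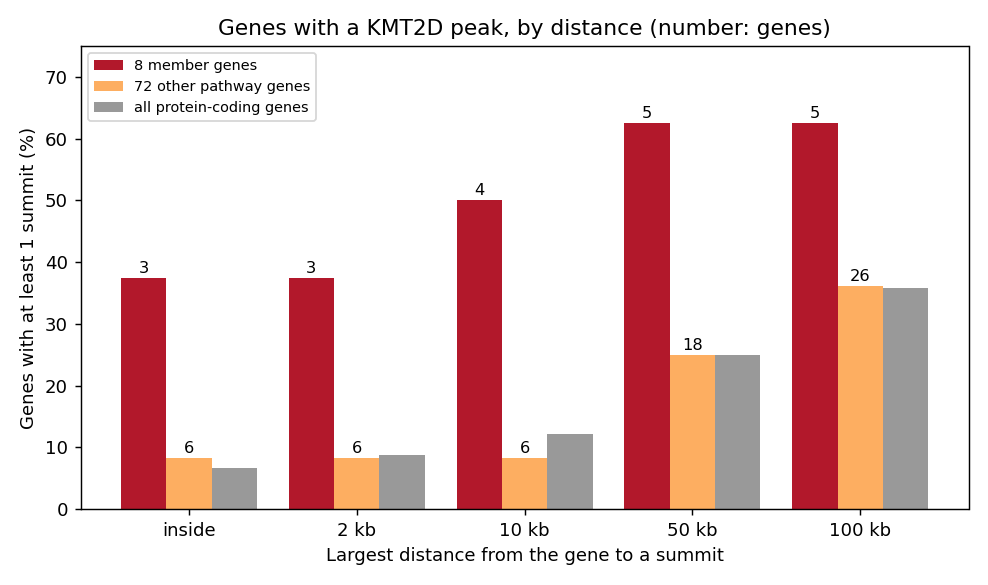
Share of genes with at least 1 KMT2D summit at or within the distance on the horizontal axis, for the 8 named genes (red), 72 other pathway genes (orange) and all protein-coding genes (grey); numbers are counts of genes. The orange and grey bars stand at 25% and 24.9% at 50 kb and at 8.33% and 12.1% at 10 kb, while the red bars describe genes that were picked with these peaks in view.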

How the data were processed

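KMT2D ChIP and input chromatin were sequenced from wild-type HT22 cells, 1 library each. The submitters' processing notes name Bowtie2, Picard, MACS2 and the build mm10; their versions, settings and the library totals are not stated there. Used here was 1 deposited peak list, with the authors' fold (a ratio of ChIP over background) and the authors' −log10 p and −log10 q of each summit.

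The genes and lists were chosen with earlier results of these data known. ChIP fragments n and background b were solved from fold = (n + 1)/(b + 1) and the Poisson p-value of more than n fragments; 3694 of 3738 peaks (98.8%), including all near the 8 genes, matched the deposited −log10 p within 0.001. On simulated peaks 2000 of 2000 pileups were recovered, and 200 of 200 planted genes were found by the 50 kb rule. Genes came from RefSeq GRCm38.p6, the assembly of mm10 (49591 of 49997 genes on main chromosome sequences). Strand came from the promoter table, which lists a start for 17491 of 21770 protein-coding genes. Scripts used Python 3.11.15, pandas 2.3.3 and scipy 1.17.1. Named genes were the 8 genes, all peaks within 50 kb of them, pathway genes with a summit inside or within 2 kb, and up to 4 more per role; pathway genes without a peak that are named were chosen after their values were seen. Values of some pathway genes are not reported here, though they count in the totals. Alternatives were windows of 2, 10 and 100 kb, stricter peaks, peak intervals, the nearest gene, and peaks left out.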

Additional observations from a re-analysis of the deposited data

How the results depend on the processing

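No paired analysis was possible because each group has 1 library and no test was made. The count of genes with a peak (5 of 8) stayed at 4 or 5 in 6 of 9 alternatives. It was 3 within 2 kb, 2 among peaks in the upper part of the list by −log10 q, split at its median (Insig2 and Scd2; 13.6% of all protein-coding genes) and 2 among peaks from the 75th percentile of fold upward (Insig2 and Msmo1; 7.48%). The 9 peaks became 4 within 10 kb, 3 within 2 kb, 14 within 100 kb, 3 at the stricter q and 2 at the stricter fold. Giving each peak to its nearest protein-coding gene left 6 peaks at the same 5 genes (10.5% of all genes). The median fold of 4.40 moved to 6.28 at the stricter fold, which selects on it. The 18 other pathway genes with a peak (of 72) became 6 within 10 kb, 6 within 2 kb, 8 at the stricter q, 2 at the stricter fold and 6 with the nearest gene, where 12.1%, 8.82%, 13.6%, 7.48% and 10.5% of all protein-coding genes had one. Leaving out peaks of background above 20 fragments or near small RNA genes, or using the whole peak interval, changed none of these counts. The number of ChIP fragments, 14 to 51 a peak, limits the precision of each fold.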

Other observations

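Promoter letters were also set against peaks over all 17491 protein-coding genes with an annotated start, of which 4.11% had a summit within 1 kb of a start. Genes whose window held TCACNCCAC had one in 10 of 246 cases (4.07%, Wilson 95% interval 2.22 to 7.32), beside 4.11% (3.83 to 4.42) of genes without it. Hmgcs1 is among these 10. For CACGTG the shares were 7.06% (5.89 to 8.44) with and 3.82% (3.54 to 4.13) without, and for GGGCGG 6.14% (5.66 to 6.67) and 2.14% (1.86 to 2.46). The shares with a match were the lower ones for CCAAT, 3.7% (3.3 to 4.16) and 4.41% (4.03 to 4.83). The same held for TATAAA, 2.7% (2.15 to 3.4) and 4.36% (4.04 to 4.69). Among genes with an observed-to-expected CpG ratio of at least 0.6 in a window, a limit chosen after the data were seen, the shares with and without a match were 8.70% (4.79 to 15.3) and 6.95% (6.43 to 7.50) for TCACNCCAC, 8.72% (7.22 to 10.5) and 6.71% (6.18 to 7.29) for CACGTG, and 7.15% (6.57 to 7.79) and 6.37% (5.40 to 7.50) for GGGCGG. At that ratio they were 6.32% (5.59 to 7.14) and 7.44% (6.76 to 8.19) for CCAAT, and 8.22% (6.41 to 10.5) and 6.86% (6.34 to 7.43) for TATAAA. For TGANTCA they were 4.37% (3.42 to 5.56) and 4.09% (3.79 to 4.41) over all genes, and 9.93% (7.51 to 13) and 6.81% (6.29 to 7.37) at that CpG ratio. Genes are not replicates, and these intervals cover counting error only.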
